A study of Mus musculus with 9 samples.

Results

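The 2 Hu libraries of the series, one from mice of postnatal day 11 (P11) and one from P13, are described here, out of 9 libraries in all. They were chosen by their labels, as the libraries precipitated with a human anti-Hu antiserum, and no measured value was used. The mice were of the FVB strain, and no mutation or treatment is stated for these groups. The tissue was cortex and cerebellum with the white matter cut away, polyribosomes were purified on sucrose gradients, and the series text speaks of brains pooled from littermates, so each library is 1 pool. RNA and protein were crosslinked with ultraviolet light, complexes were taken apart in 2% SDS, and the RNA fragments that came down with Hu (tags) were read on Illumina. Each lysate was divided, and its other portion was precipitated with the polyclonal antibody ab17722 against FMRP. These FMRP libraries of P11 and P13, made and read in the same way, are the comparison used below; the other 5 libraries were made with a different protocol and platform.

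The Hu proteins are the mammalian relatives of fly ELAV. Elavl2, Elavl3 and Elavl4 encode the neuronal members and Elavl1 the member found in most cells (HuR). They bind stretches rich in U and AU, mostly in the 3′ untranslated region (3′UTR) of mRNAs, and are known for raising the stability and translation of their targets. A human anti-Hu antiserum recognises the neuronal members together, so the tags cannot be divided between them. Where a protein stays crosslinked to a base, reverse transcriptase often skips that base, and the copy then carries a small deletion; the share of tags with a deletion is therefore commonly read beside CLIP tags.

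The P11 library held 25873 tags on RefSeq transcripts and 59118 on the genome, and the P13 library 49847 and 98832. A tag count of 0 for a gene allows up to 3 counts, which is 116 CPM at P11 and 60.2 CPM at P13 (CPM is the gene's tags scaled to a common library total). The number of distinct start positions was 83.7% and 86.2% of the number of transcript tags, against 91.1% and 94.4% in the FMRP libraries. The median tag was 39 nt long at P11 and 47 nt at P13. Hu tags fell on 7260 genes, of which 3756 had a tag in both libraries and 2012 had a single tag in all. With 1 library at each age, differences between P11 and P13 have no replicate check, and their intervals cover counting error only.

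Neuronal and myelin genes were among the genes with most Hu tags (the plot of genes with most Hu tags). Actb, encoding β-actin, had 220 tags at P11 and 280 at P13, or 8503 and 5617 CPM. Calm3, a gene of the calcium sensor calmodulin, had 238 and 230 tags (9199 and 4614 CPM). Both genes were thus lower in CPM at P13 than at P11.

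Among the next genes were Ywhag, a 14-3-3 adaptor gene, with 164 and 220 tags, the SNARE gene Snap25 with 77 and 315, and Qk, whose product is an RNA-binding protein of myelinating glia, with 74 and 307. Agap2, the gene of a GTPase-activating protein that binds PI3-kinase, had 122 and 193. The neural cell adhesion gene Ncam1 had 164 and 101, and Atp1b1, a subunit of the sodium pump, had 100 and 214. Places 11 to 20 went to Dpysl2, Ywhaz, Gnb1, Dclk1, Arf3, Gpm6a, Marcks, Ugt8a, Slc8a1 and Celf2. All 20 genes were above both FMRP libraries in both Hu libraries, a contrast that their choice by Hu tags partly sets. For Calm3 the FMRP libraries had 6 and 39 tags, for Marcks, a calmodulin-binding protein gene of the membrane, 2 and 10 against 93 and 117, and for Agap2 88 and 142.

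**Figure D1:**
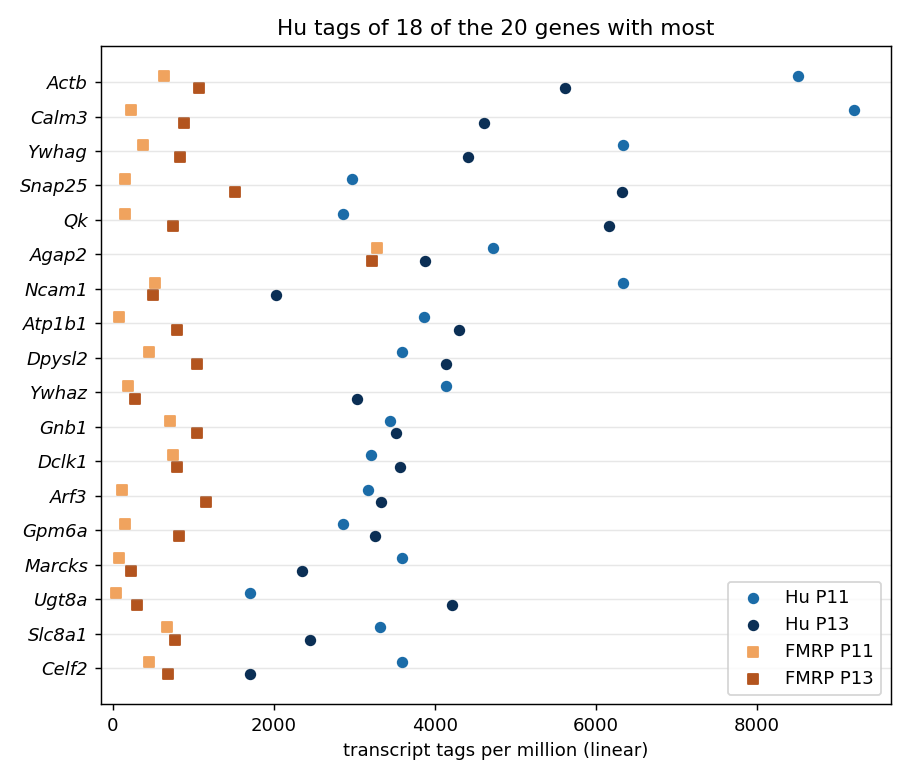
Transcript tags in CPM (linear axis) of 18 of the 20 genes with most Hu tags, 1 point per library, with circles for Hu and squares for FMRP at P11 and P13. Every Hu point lies to the right of both FMRP points of its gene, by least for Agap2 (88 and 142 FMRP tags against 122 and 193 Hu tags).

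Together the 20 genes held 9.16% of the Hu tags at P11 and 8.73% at P13, against 0.929% and 1.97% of the FMRP tags. Per kilobase of transcript the order changed: Actb, Calm3, Snap25, Atp1b1, Ppia, Ywhaz, Cldn11 and Gnb1 were among the first 10, and 12 of the 20 genes stayed among the first 20. Long transcripts such as those of Celf2 (12.4 tags per kb over both libraries) and Slc8a1 (11.1) were replaced by short ones such as Ppia, the cyclophilin A gene (88.6), and the tight-junction gene Cldn11 of myelin (105). Ppia had 31 and 35 transcript tags but 0 and 1 genomic tags within its bounds, so its transcript tags may not belong to it. Across the 920 genes with at least 20 Hu tags, Spearman's rho between the libraries was 0.42, as a description over genes that share both libraries. Between the Hu and FMRP libraries of the same lysate it was 0.153 at P11 and 0.476 at P13. The 920 genes were chosen by their summed Hu tags, which can lower rho between the Hu libraries. Over the 7260 genes with any Hu tag, rho was 0.502 between the Hu libraries. Between Hu and FMRP it was then 0.223 at P11 and 0.461 at P13, so the order of these values depends on the genes taken. The rank of the 920 genes followed the exon-array intensity in the authors' table only weakly. Over the 829 of them with a deposited intensity, rho of tags per kb with it was 0.081 at P11 and 0.279 at P13, and 0.244 and 0.412 for FMRP.

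Genes of a few families were counted from lists, which were drawn up with earlier results of these data known. A Hu tag is common, since 7260 of the 10338 genes with a tag in any Hu or FMRP library compared here had at least 1, so the member counts alone do not mark these families. All 4 Elavl mRNAs had Hu tags. Elavl1 had 36 and 66 tags, Elavl4 25 and 29, Elavl2 11 and 11, and Elavl3 5 and 2. Per kb this was 16.9, 11.6, 3.37 and 1.04 tags over both libraries, so Elavl1 was the highest and Elavl3 the lowest, and every Hu tag on them lay beyond the coding length. Among 14-3-3 genes, whose products bind phosphorylated partners, Ywhae (20 and 51), Ywhah (8 and 32) and Ywhab (5 and 22) followed Ywhag and Ywhaz. Small GTPases, the switches of vesicle traffic and the cytoskeleton, had tags on 32 of 36 genes, led by Arf3 (82 and 166), Rab6a (45 and 108) and Rhob (23 and 58). Ubiquitin conjugation genes had tags on 22 of 26, with Skp1, a subunit of ubiquitin ligases, at 38 and 60.

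Ribosomal protein mRNAs were almost bare with either antibody. The 26 genes of that list held 10 Hu tags at P11 and 6 at P13, against 14 and 12 FMRP tags, and 20 of them had no Hu tag. The immediate early and unstable mRNAs, a class rich in AU elements, held 11 and 55 tags, of which Egr1, an activity-induced transcription factor gene, had 4 and 35. Markers of other cells were at or near 0: the 10 microglial genes had 1 and 0 tags and the 8 endothelial genes 1 and 2, with Cx3cr1, P2ry12, Cldn5 and Pecam1 at 0 in both libraries. The 10 astrocyte genes had 6 and 41 tags, of which Glul, the glutamine synthetase gene, had 2 and 28, and Gfap had 0 in both. All 12 neuron markers had Hu tags, beside 7260 of the 10338 genes with any tag. The FMRP libraries held 73 and 104 tags on the astrocyte genes, 1 and 4 on the microglial genes and 0 and 0 on the endothelial genes. In bulk tissue fewer cells of a type, less RNA per cell and less binding by Hu cannot be told apart from Hu tags alone.

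Hu tags lay almost wholly past the coding length of the gene. Among tags on genes with a deposited length (91.3% and 92.6% of tags), 93.0% at P11 (95% Wilson interval 92.6 to 93.3) and 92.8% at P13 (92.6 to 93.1) had their middle farther from the transcript start than the coding sequence is long. An even spread along the deposited total lengths of the same genes would give 64.7% and 64.9%. In the FMRP libraries the shares were 21.5% and 30.9%, against 43.2% and 46.7% for an even spread. The Hu libraries averaged 92.9% ± 0.0928 (SD, n = 2) and the FMRP libraries 26.2% ± 6.71, and the 2 groups did not overlap. The two-sided exact permutation p was 0.333, which is the smallest that 2 against 2 libraries can give.

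The deposited table gives lengths and not the start of the coding sequence, so a tag just past the coding length can still be coding. If the coding sequence began 300 nt from the transcript start in every gene, the Hu share past its end would be 83.2% at P11 and 83.3% at P13, and the FMRP share 14.8% and 23.9%. With the coding sequence in the middle of the untranslated length of every gene, it would be 37.3% and 37.7% for Hu and 5.96% and 9.92% for FMRP. The deposited lengths are pooled over all transcripts of a gene. If they held for each tagged transcript, tags that must be coding wherever the coding sequence lies would be 1.40% and 1.54% of Hu tags. For FMRP tags they would be 32.4% and 27.4%. Hu tags climbed steeply just past the coding length (the plot of tag position). At P11, 0.749% of tags lay in the last 100 nt before it, 1.55% in the first 100 nt after it and 5.46% between 200 and 300 nt after it.

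**Figure D2:**
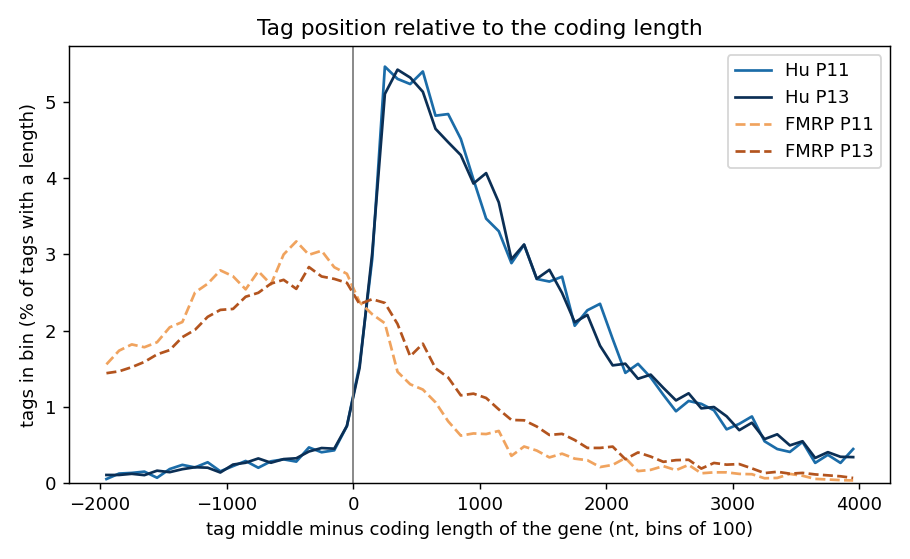
Share of tags (% of tags on genes with a deposited length, bins of 100 nt) by distance of the tag middle from the coding length, which is set to 0, with solid lines for Hu and dashed lines for FMRP. Both Hu curves stay low before 0 and peak 200 to 600 nt after it, where the P11 library has 5.46% of its tags in the bin from 200 to 300 nt, while the FMRP curves are highest before 0.

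Measured against the deposited total length, Hu tags were not crowded at the transcript ends. The total length minus the tag position had a median of 1708 nt at P11 and 1710 nt at P13. By the same length, 4.76% and 4.77% of tags lay in the first 20% of the transcript. That length is pooled over all transcripts of a gene, so these values can differ from the distance to the 3′ end of the tagged transcript. By the deposited lengths, the 100 genes with most Hu tags had a median of 4587 nt outside the coding sequence and 1489 nt within it. For the 100 genes with most FMRP tags these were 3356 and 6313 nt, and for all genes with a tag 1841 and 1542 nt. The part of transcript length in ranking by tags was not tested.

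The pattern held gene by gene. Of 849 genes with a length and at least 20 Hu tags, 751 had at least 90% of their Hu tags beyond the coding length and 469 had all of them there. In the 20 genes with most tags the share was between 94.3% and 100% in each library. Only 16 genes were below 50%, and they were picked out after their values were seen. Among them Map2, which encodes a dendritic microtubule protein, had 57 and 131 Hu tags and Ank2, the ankyrin-B gene, 38 and 89, all at positions short of the deposited coding length. The Map2 tags ended at position 5535 of an accession, with 5642 nt of coding length and 12664 nt of total length in the table. The Ank2 tags ended at 5690, against 7952 and 11906 nt. The table's lengths are pooled over all transcripts of a gene while the tags sit on 1 accession, so for these genes the 2 lengths may not match and the share is not a measure of coding tags. The same lengths were used for every gene. The shares beyond the coding length, the even-spread values and the tags per kb therefore carry this limit too, and its size was not tested.

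Crim1 and Agap1 showed another kind of exception. Crim1, a transmembrane gene of growth-factor signalling, had 17 and 29 Hu tags, and its 17 P11 tags stood at position 22. Agap1 had 31 of its 46 P11 tags over position 472. In neither pile-up did any read found on the genome map within the bounds of the named gene (0 of 20 for Crim1 and 0 of 21 for Agap1).

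Small deletions marked 32.3% of the Hu tags at P11 (95% Wilson interval 31.8 to 32.9) and 30.4% (29.97 to 30.8) at P13. In the FMRP libraries from the same lysates it was 11.1% and 13.5%. The 2 groups did not overlap, at 31.4% ± 1.39 (SD, n = 2) for Hu and 12.3% ± 1.71 for FMRP, with an exact permutation p of 0.333, again the smallest possible. Deletions of 1 nt were found in 21.4% and 21.0% of Hu tags and deletions of 2 nt in 10.97% and 9.41%. Insertions were rarer, at 4.80% and 3.02%, against 0.314% and 0.454% for FMRP. The median deletion lay near the middle of the tag, 45.7% and 45.5% of the way along it.

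The Hu share stayed close to this when tags were restricted. With only the tags beyond the coding length it was 32.5% and 30.7%, against 11.9% and 19.5% for FMRP. Within tags of 36 to 44 nt, so that length was nearly the same in all libraries, it was 34.4% and 29.7%, against 10.3% and 12.0%. Tag length did move with it inside each library: longer tags carried a deletion in 36.1% and 33.6% of cases and shorter ones in 28.6% and 27.3%.

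Genes differed widely in this share. Over the 206 genes with at least 20 tags in each Hu library the median was 32.5% at P11 and 30.7% at P13, the range was 1.64% to 72.7% and 3.63% to 60%, and rho between the libraries was 0.419. Genes at the extremes are named after their values were seen. Of 3 genes under 10% in both libraries, Agap2 was the lowest, at 1.64% and 3.63%, and the elongation factor gene Eef1a1 was at 7.84% and 9.23%. Dcx, the doublecortin gene of migrating neurons, was at 67.6% and 52.4%, and LOC100046958 at 53.6% and 56.0%. Apart from Agap2, the 20 genes with most tags ran from 13.3% (Ugt8a at P13) to 53.8% (Celf2 at P11).

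Hu tags recurred at the same transcript positions in both libraries. Summits with at least 10 overlapping tags numbered 289 at P11 and 529 at P13. Of these, 177 in 145 genes had a partner within 50 nt in the other library, which is 61.2% of the P11 summits and 33.5% of the P13 summits. The partners were a median of 4 nt apart and 143 were within 10 nt. With P13 thinned to the depth of P11, a setting added after the data were seen, 93 were shared, or 32.2% of the P11 summits and 57.1% of the 163 P13 summits left. Among summits without a partner, 5 of the 112 at P11 and 63 of the 352 at P13 had no tag of the other library over them. The FMRP libraries had 13 and 28 such summits, of which 4 were shared.

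FMRP tags were sparse at the shared Hu pile-ups and came mostly from P13. In 59 of the 177 neither FMRP library had a tag, and in 2 both had at least 10. The P11 FMRP library had a tag at 15 of them (69 tags in all) and the P13 FMRP library at 117 (381 tags), or 0.258% and 0.864% of their tags. Of the 162 pile-ups on genes with a length, 152 lay beyond the coding length.

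Pile-ups were ranked by the lower of their P11 and P13 heights in CPM. The tallest was in Agap2 (mm9, chromosome 10, 126530000 to 126530047, plus strand), at transcript positions 5446 and 5426. It held 108 tags at P11 and 169 at P13, which was 88.5% and 87.6% of the gene's tags, with 0 and 6 FMRP tags over it. These tags had 20 and 33 distinct starts, and a deletion was found in 1.85% and 0%. The gene's log2 ratio of Hu to FMRP was 0.12 over all tags (edgeR, adjusted p = 0.842). With tags of the same start counted once it was -1.40 (edgeR, adjusted p = 0.0436), so its direction turned.

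The second was in Actb (chromosome 5, 143665261 to 143665319, minus strand), at positions 1387 and 1384, with 94 and 95 tags, 0 and 8 FMRP tags, and a deletion in 54.3% and 47.4%. The deletion stood most often at position 1383 in both libraries, in 24 tags of each. Actb had 5 shared pile-ups, and its next ones at positions 1630 and 1618 (30 and 46 tags) and at 1736 and 1728 (23 and 50 tags) held deletions in 0% and 2.17%, and in 8.70% and 16%. The remaining ones, at 1508 and 1531 and at 1431 and 1434, held them in 25% and 15% and in 30% and 37.0%.

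Other tall pile-ups took very different shares of their gene. Eef1a1 had 48 and 63 tags near position 1669, which held 94.1% and 96.9% of the gene's tags. Dclk1, a doublecortin-like kinase gene, had 32 and 60 tags (38.6% and 33.7% of the gene's tags) with a deletion in 68.8% and 61.7%. Tspan7, a membrane protein gene, had 35 and 53, and Psd, the gene of an exchange factor for Arf6, had 28 and 49 with a deletion at position 3613 in 12 tags of each. The 15 tallest pile-ups lay in 13 genes, among them also Ywhag, R3hdm4, Ywhaz and Atp1b1, and the P11 FMRP library had no tag over any of them. The P13 FMRP library had between 0 and 11.

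**Figure D3:**
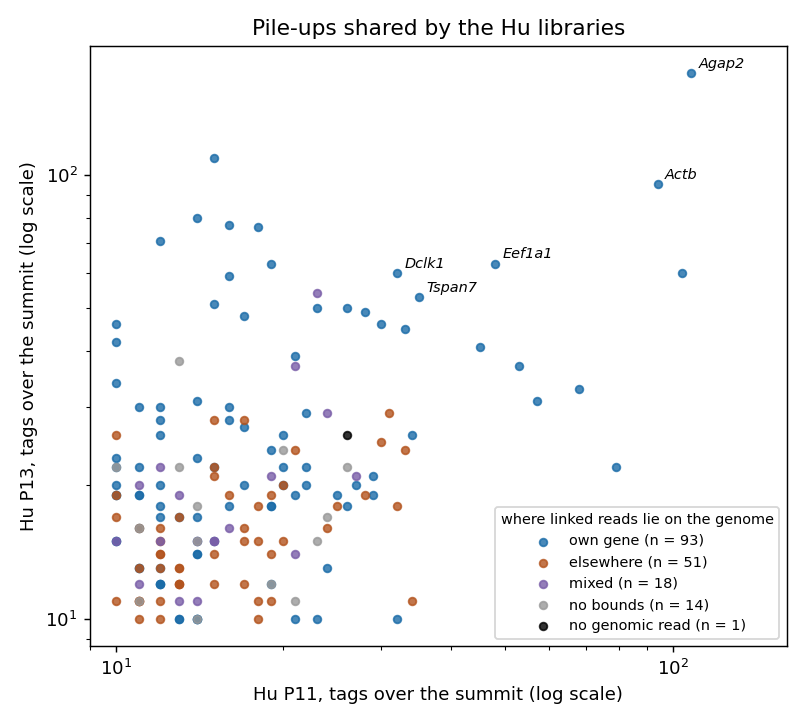
Tags over the summit of each of the 177 pile-ups shared by the Hu libraries, P11 across and P13 up, both on log axes, coloured by where reads of the pile-up lie on the genome. Agap2 (108 tags at P11) and Actb (94) are among the few points far to the right, and pile-ups whose reads map elsewhere (51) stay among the lower heights.

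Reads of a pile-up that also appear in the genomic list show whether the named gene is their place. In 93 of the 177 at least 80% of such reads lay within the bounds of the gene, and in 51 under 20% did. A further 18 were mixed, 14 were on genes with no deposited bounds, and 1, in Ppia, had no read on the genomic list at all. Among the 15 tallest, 13 were in the first class and 2, R3hdm4 among them, were mixed. The class elsewhere took in genes such as Zfp422 (30 and 25 tags), Birc5, a cell-division gene (24 and 16), Opn1sw, an opsin gene (34 and 11), and the growth-factor gene Fgf8 (10 and 19). The transcript named for such tags is uncertain, since near-identical copies can take each other's reads. A median of 79.2% of the reads in the first class and 28.9% in the class elsewhere were on the genomic list. The median deletion share at P11 and P13 was 31.3% and 28.9% in the first and 27.3% and 30.8% in the other.

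Pile-ups with many deletions in one library tended to have many in the other. Over the 93 pile-ups placed on their own gene, Pearson's r was 0.582 and Spearman's rho 0.615, given as a description, since they share 2 libraries and several share a gene. Deletions were under 10% in both libraries in 14 of them and over 50% in both in 8. In 17 of all shared pile-ups the most frequent deletion position had at least 5 tags in each library. It was the identical base in 13 of these and within 5 nt in 15. Besides Actb, Psd and Tspan7, the 13 include 3 pile-ups of Calm3 (positions 991, 1926 and 2115), Ywhaz at 2105, Cfl1, the gene of the actin-severing protein cofilin, at 876, and Mllt11 at 1222. How an aligner places a gap within a run of equal bases also fixes such a position, and this was not tested.

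**Figure D4:**
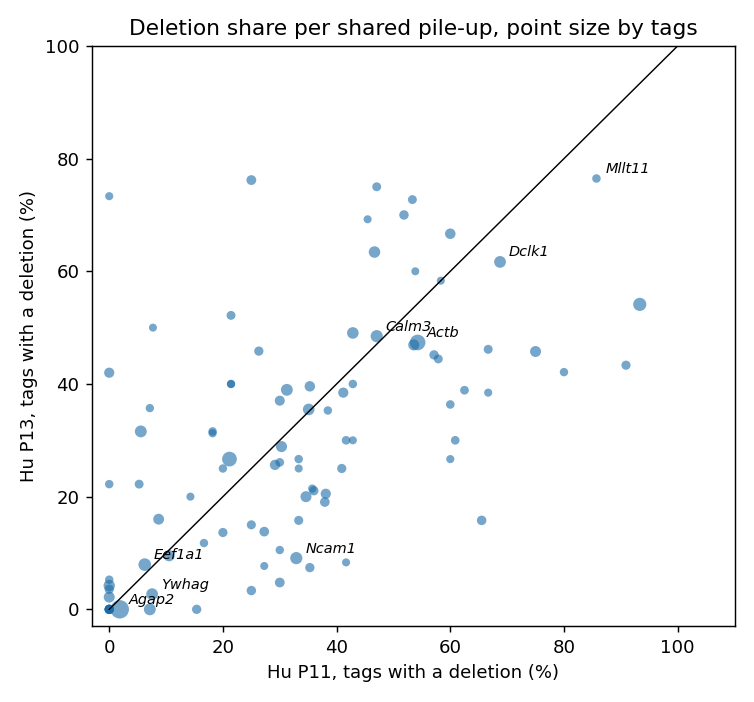
Share of tags with a deletion (%) in each of the 93 shared pile-ups placed on their own gene, P11 across and P13 up, with point area growing with the number of tags and the line marking equal shares. The tallest pile-ups of Agap2 and Eef1a1 stay under 10% in both libraries, and those of Dclk1 (68.8% and 61.7%) and Actb (54.3% and 47.4%) stay high in both.

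Of the lists with more than 100 Hu tags, myelin mRNAs had the highest ratio of P13 to P11. The 13 oligodendrocyte and myelin genes together went from 215 to 1044 tags, a ratio of 2.52 after scaling to library totals (95% counting interval 2.17 to 2.93). All 6 members with at least 20 Hu tags were higher at P13, beside 49.3% of the 920 genes with as many tags. Of the 5 with at least 40 tags, all 5 were at least 2-fold higher, beside 17.1% of the 381 such genes. Ugt8a, an enzyme gene of myelin lipid synthesis, went from 44 to 210 tags, 2.48-fold (1.78 to 3.51). Cldn11 went from 25 to 164 (3.40-fold, 2.23 to 5.42) and Mal, a myelin membrane gene, from 1 to 40. In the FMRP libraries of the same lysates the list went from 15 to 163 tags, a larger ratio of 6.61 (3.89 to 12.1), so the rise was not particular to Hu. Counting 1 tag per start position brought the Hu ratio to 1.81 (1.51 to 2.17).

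**Figure D5:**
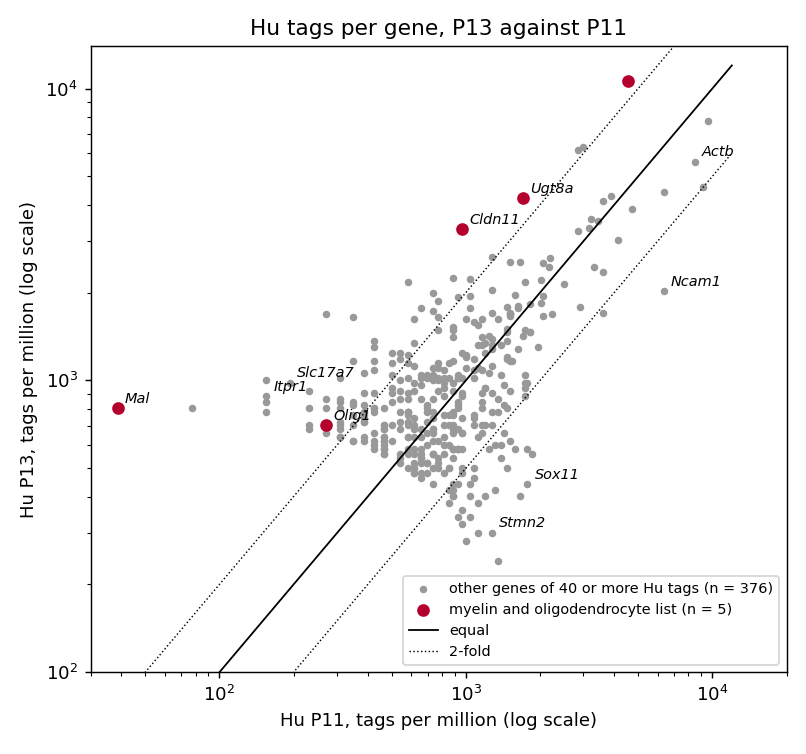
Hu tags in CPM of each of the 381 genes with at least 40 Hu tags, P11 across and P13 up on log axes, with genes of the myelin and oligodendrocyte list in red and lines at equality and at 2-fold. The 5 red points, Ugt8a, Cldn11, Olig1 and Mal among them, all lie above the upper 2-fold line.

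Over all 381 genes, 65 were at least 2-fold higher at P13 and 37 at least 2-fold lower, which is 17.1% and 9.71%, with a median ratio of 1.10. The counting interval lay above 1 in 72 genes and below 1 in 60. Scaling by TMM, a trimmed mean of the gene ratios between libraries, multiplied every ratio by 1.19 (a shift of 0.26 on the log2 scale) and made the counts 88 and 21. The highest ratios after that of Mal were in Wasl, an actin-nucleation gene (2 and 40 tags), the cyclin-like gene Ccni (4 and 50), Nf1, the neurofibromin gene (7 and 84), and Itpr1, a calcium channel gene strong in Purkinje cells (4 and 44). Mbnl2, a splicing regulator gene, had 4 and 42, the vesicular glutamate transporter gene Slc17a7 5 and 49, and the G protein gene Gnai1 4 and 39. Slc17a7 and Itpr1 were 5.09-fold (2.04 to 16.4) and 5.71-fold (2.08 to 21.9) higher.

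The lowest ratios are given gene by gene. Stmn2, which encodes a tubulin-binding protein of growing axons, went from 33 to 15 tags, a ratio of 0.236 (0.119 to 0.447). Sox11, a transcription factor gene of immature neurons, went from 46 to 22 (0.248, 0.142 to 0.421) and Ncam1 from 164 to 101 (0.320, 0.247 to 0.412). Others were Opn1sw (35 and 12), Xpr1, a phosphate exporter gene (43 and 20), Gm5113 (29 and 15) and Apba1, the gene of a presynaptic adaptor (48 and 28). Opn1sw holds a pile-up whose reads map elsewhere.

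Lists of neuronal function went both ways. SNARE and synaptic vesicle genes went from 308 to 834 tags (ratio 1.41, 1.23 to 1.61), or 1.17 without Snap25. App family and processing genes went from 85 to 263 (1.61, 1.25 to 2.08), with App at 33 and 102. Neuron markers, a list that also holds Snap25, went from 211 to 632 (1.55, 1.33 to 1.83), or 1.23 without Snap25. Calmodulin and its targets went from 828 to 1250 (0.784, 0.717 to 0.857), with Calm3 at 0.502 but the calcineurin subunit gene Ppp3r1 at 2.53. With TMM scaling this list was at 0.936 (0.857 to 1.02), an interval that includes 1. Actin and tubulin genes were at 0.703 (0.617 to 0.801), and at 0.840 (0.737 to 0.957) with TMM. The list of mRNAs reported as Hu targets, chosen from earlier knowledge of such targets, was at 0.688 (0.608 to 0.779) and at 0.822 (0.726 to 0.931) with TMM. Under scaling to library totals, none of its 7 members with at least 20 tags was higher at P13, beside 49.3% of genes. That count depends on the scaling, since Elavl1 was at 0.952 and TMM multiplies each ratio by 1.19.

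Against FMRP, 1015 genes had enough tags for a test (edgeR's quasi-likelihood test, Benjamini-Hochberg adjustment at 0.05). Higher in Hu were 271 (26.7%) and higher in FMRP 340 (33.5%), so Hu genes made up 44.4% of the calls. By DESeq2 the counts were 128 and 334, a Hu share of 27.7%. The zero point moves with the scaling, since the median gene stood at a log2 ratio of 0.17 under TMM, at -0.21 under the size factors of DESeq2 and at 0.43 under plain totals. The number higher in Hu was 109 without the P11 Hu library, 137 without the P13 Hu library, 84 without the P11 FMRP library and 282 without the P13 FMRP library, where the median gene stood at 1.17 on the log2 scale. Of the 20 genes with most Hu tags, 16 were called higher in Hu, a count that their choice by Hu tags partly fixes. Snap25, Arf3 and Agap2 were among those that did not pass, but with the lysate as a block Snap25 (2.63 on the log2 scale) and Arf3 (2.47) did (edgeR adjusted p of 0.00106 and 0.00285).

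Small GTPase genes had 11 of 15 tested members higher in Hu, with a list median of 2.42 on the log2 scale, beside 26.7% and 0.17 for all genes. They were Rab6a, Rab10, Rab11a, Rab11b, Rac1, Rac2, Rhoa, Rhob, Rap2a, Arf4 and Arf6, and Rac2 has a pile-up whose reads map elsewhere. Of the 36 genes on the list only 15 had enough tags for a test. Several of the 11 reached it through their Hu tags, with FMRP tags of 0 and 0 for Rac2 and 1 and 2 for Rhoa. The filter on low counts thus partly sets this count and median. It does so too for the lists below, where FMRP tags were 0 and 4 for Cfl1 and 0 and 2 for Itm2b. Only Rab6a passed in each fit without 1 of the 4 libraries, and with the lysate as a block 7 of the 11 passed, without Arf4, Arf6, Rac1 and Rap2a. Rab6a was at 2.92 (SE 0.64; adjusted p = 0.00537 by edgeR). Calmodulin and its targets had 6 of 13 higher (among them Calm2, Calm3, Camk2d, Marcks and Marcksl1; median 1.85). Actin and tubulin genes had 5 of 7 (Actb, Cfl1, Pfn1, Pfn2 and Tubb5; median 2.72), 14-3-3 genes 3 of 4 (median 2.36), and App family genes 3 of 4, namely App, Aplp2 and Itm2b (median 2.01). Without each library in turn, Calm3, Marcks, Actb, Cfl1, Ywhag and Ywhaz were among those that passed every time, and none of the 3 App family genes did. Of the 19 mRNAs reported as Hu targets only 5 had enough tags for a test, namely Actb, Elavl1, Elavl4, Marcks and Nrn1, and all 5 were called higher in Hu. Several reached the test through their Hu tags (Elavl1 had 0 and 7 FMRP tags and Marcks 2 and 10), so this count is largely set by the filter on low counts. Leaving out the P11 FMRP library lost the calls of Elavl1, Nrn1 and Elavl4 (adjusted p = 0.0518, 0.0535 and 0.0586 by edgeR). Elavl4 also lost its call without the P13 FMRP or the P11 Hu library.

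Of 13 tested postsynaptic scaffold and signalling genes, Lin7a and Lin7c were higher in Hu and 7 were higher in FMRP (among them Shank1, Shank3, Dlgap3, Dlgap4, Iqsec1 and Iqsec2), with a median of -1.82, beside 26.7% and 33.5% of all genes tested and their median of 0.17. Lin7c, the gene of a small scaffold of cell junctions, had 22 and 25 Hu tags and none in either FMRP library, which is at least 15.97-fold higher against 3 counts over both. Lin7c thus reached the test through its Hu tags alone. RNA-binding protein genes had 6 of 13 higher in Hu (Qk, Celf2, Hnrnpu, Fmr1, Tardbp and Mbnl1) and Pum2 higher in FMRP, beside the same 26.7% and 33.5%. Of these 6, Qk alone passed in each fit without 1 library, and Tardbp did not pass with the lysate as a block, nor did Lin7a. Among all 920 genes with at least 20 Hu tags, 37 had no FMRP tag.

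The genomic tags add introns and regions without a named gene. Within the gene bounds of the authors' table, on the sense strand, lay 43.7% (95% Wilson interval 43.3 to 44.1) of Hu tags at P11 and 54.2% (53.9 to 54.6) at P13, against 56.5% and 63.1% for FMRP. Outside all bounds lay 47.0% and 39.3%, against 36.9% and 32.0%. Tags only antisense to a gene were 6.51% and 3.91%, so sense tags outnumbered them 6.72-fold at P11 and 13.9-fold at P13. The P11 library was thus the lower in sense tags and the higher in antisense and outside tags for either antibody. Mitochondrial tags were 0.0338% and 0.197% of Hu tags, against 0.298% and 1.27% of FMRP tags.

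Sense tags inside gene bounds that are absent from the transcript list, which include intronic ones, were 19.6% and 19.5% of Hu tags and 14.6% and 15.5% of FMRP tags. Of 264 genes with at least 50 genomic sense tags, on the transcript list or not, 46 had no more than 1 transcript tag for every 3 of them. Pcdh9, a protocadherin gene (chromosome 14, 93412920 to 94287951), had 55 and 204 genomic tags beside 8 and 22 on its transcript. The synaptotagmin gene Syt11 (chromosome 3, 88548623 to 88576521) had 31 and 109 beside 2 and 5. Pafah1b1, the lissencephaly gene (chromosome 11, 74487457 to 74538172), had 45 and 109 beside 4 and 11. The NMDA receptor gene Grin2b had 71 and 54 beside 23 and 15, and Purg 71 and 54 beside 2 and 0. Whether such tags are intronic or lie on a longer 3′UTR than the RefSeq transcript was not tested. These genes were picked out after their values were seen.

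The opposite case was counted with a stricter cut, no genomic tag at all, so its count is not comparable with the one before. Of 839 genes with bounds, a known strand and at least 20 transcript tags, 17 had no genomic Hu tag within their bounds. They are Adra2b, Alpk3, AU022252, Birc5, C5ar2, Cbx3, Cdnf, Cenpl, Gata3, Gm4836, Nsmce1, Pgam1, Six4, Tmem243, Unc93a, Zbtb8a and Zfp780b. The zinc-finger genes Zfp780b and Zbtb8a had 36 and 27 and 23 and 20 transcript tags, and Birc5 had 24 and 17. Nsmce1 (15 and 21) and Gm4836 (13 and 13) had no tag with a deletion in either library. For these genes the transcript tags cannot be taken as signal of the named gene.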

How the data were processed

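The members and gene lists were chosen with earlier results of these data known. Per the submitters' processing notes, reads were aligned with Novoalign to mm9; the sources used here do not give how tags were collapsed. Each Illumina library has a list of unique tags on RefSeq transcripts and a list on the genome, as deposited by the authors; the deposited score in column 5 was not used. Each line was counted as 1 tag. The authors' gene table gave lengths, mm9 gene bounds, an array intensity per gene as deposited, and the authors' counts per gene for the 2 FMRP libraries. These counts were used only to check the assignment of accessions to genes (Spearman's rho 0.861 and 0.870 over 760 genes). Of 10338 genes with a tag, 9496 were named from the RefSeq table of GRCm38.p6, 655 from the authors' table, and 187 kept their identifier. No coordinates came from that table. Intensity was compared with tags per kb of transcript.

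Deletions are gaps in a deposited transcript alignment. Pile-ups were the highest points of overlap, taken repeatedly with their tags removed, so a height counts tags not claimed by a taller summit, while deletion shares use every tag over the summit. Gene strand came from RefSeq for 14390 of 18241 genes with bounds, and otherwise from reads present in both lists (15399 in all; where both applied, 4060 of 4064 agree). Ratios of P13 to P11 carry exact conditional binomial intervals at 95%, and intervals and floors cover counting error only. Hu and FMRP were compared with edgeR 4.0.16 in R 4.3.3 (TMM, filterByExpr, group as the only term), and with DESeq2 1.42.0 as an alternative. The lysates pair the libraries, per the series text, and the deviations of same-lysate libraries from their group means correlated at 0.160. P-values measure the spread between 2 pools of different age. Named genes are the 20 with the highest mean Hu CPM, the 10 with most per kb among genes of at least 50 tags, the 8 largest and 8 smallest ratios among genes of at least 40 tags, the genes of the 15 tallest shared pile-ups, up to 4 members of each list, the Elavl genes, and genes with at least 20 transcript tags and no genomic tag. The scripts were tested on simulated data. Python 3.11.15, pandas 2.3.3, scipy 1.17.1, matplotlib 3.10.9 and bedtools 2.31.1 were used. No site sequence is printed, since no mm9 genome was used here. A few genes that meet the rule for named genes are not reported here.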

Additional observations from a re-analysis of the deposited data

Results flagged for a closer look

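The change from P11 to P13 ran in opposite directions in the Hu and FMRP libraries of the same lysates for 2 gene lists, with each counting interval clear of 1 under scaling to library totals; the difference was not tested. The list of mRNAs reported as Hu targets was at a ratio of 0.688 in Hu and 1.49 in FMRP, and calmodulin and its targets at 0.784 and 2.48. Under TMM scaling the Hu ratio of calmodulin and its targets was 0.936 (0.857 to 1.02), an interval that includes 1. The P13 FMRP library also had tags at 117 of the 177 shared Hu pile-ups, against 15 for the P11 FMRP library, and the part of this in the ratios was not tested.

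Outside all gene bounds of the authors' table, 17 genomic pile-ups of at least 20 tags were shared by the Hu libraries, of 32 at P11 and 41 at P13. They held 2.75% and 3.40% of the tags outside bounds. The tallest by the lower scaled height was on chromosome 6 near position 47731693 on the plus strand (91 and 446 Hu tags, 10 and 24 FMRP tags), followed by chromosome 8 near 15519933 (64 and 288, against 14 and 37 for FMRP). A pile-up on chromosome 17 near 39984469 had 71 and 53 Hu tags and more FMRP tags (171 and 255).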

How the results depend on the processing

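Of the 20 genes with most Hu tags, 18 were still among the first 20 with 1 tag per start position or with genomic tags, 20 with P13 thinned, and 12 per kb. Rank agreement of the Hu libraries was 0.502 over genes with any tag. The mean Hu share beyond the coding length was 91.4%, 88.4% and 83.2% with the coding sequence 100, 200 and 300 nt from the start, 37.5% with it in the middle of the untranslated length, 92.3% without the 20 top genes, 92.4% with 1 tag per start and 94.9% with genes weighted equally; FMRP was at 5.96% and 9.92% in the middle placement. The difference from FMRP ran from 61.96 to 71.5 percentage points without single libraries. Deletions were in 21.2% of Hu tags counting 1 nt only. Shared pile-ups numbered 40 at a height of 20, 612 at 5, and 93 with P13 thinned. Genomic tags inside bounds were 56.8% on either strand. Genes at least 2-fold higher and lower at P13 numbered 36 and 15 of 293 with 1 tag per start, and 21 were lower with TMM. Genes higher in Hu numbered 155 without the filter on low counts and 128 by DESeq2; without single libraries they ran from 84 to 282, and genes higher in FMRP from 214 to 422. With the lysate as a replicate block 271 and 331 passed; of 121 named genes the block changed 20 calls (14 gained, among them Snap25 and Arf3, and 6 lost). Agap2 turned to -1.40 with 1 tag per start. The cause of these changes was not tested. Deletion settings and the thinned pile-ups were chosen after seeing the data. Depth limits what single genes can show, since 3 counts are 116 CPM at P11.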
